A study of Homo sapiens with 4 samples.

Results

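Heavy polysomes were compared with light polysomes within a single sucrose gradient of a human cell line, HCT116, which derives from a colorectal carcinoma and whose genotype is here labelled Dicer1 knockout. The comparison uses 2 of the 4 libraries of the study, 1 per subfraction. Heavy is 10mer or more, nominally mRNAs carrying 10 or more ribosomes, and light is 9mer or less. The other 2 libraries are the same subfractions of wild type HCT116 cells, and they are used below for reference. No treatment is named for either genotype, and whether the knockout is 1 clone is not given in the sources used here. Of 26364 gene symbols in the table of read counts, 11084 had 50 or more counts in both knockout libraries and make up the comparison. There was 1 library per subfraction and genotype, so no value here has a replicate, no test between conditions was possible and no p-value is given. The limits printed in parentheses after a ratio are exact 95% counting intervals, which cover counting error and no variation between cultures or gradients. Limits after a difference between the knockout and the wild type ratio are approximate 95% intervals from the 4 counts, with the same restriction.

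Ribosomes that translate the same mRNA one behind another form a polysome, and sedimentation through sucrose sorts these complexes by how many ribosomes they hold. A coding sequence offers room for only a limited number of ribosomes, so its length bounds the size of the polysome, while the rates of initiation and elongation set how densely that room is filled. DICER1 cuts microRNA precursors into mature microRNAs, which guide Argonaute proteins to mRNAs and lower their translation and stability. The quantity used throughout is the log2 ratio of heavy over light, computed from counts brought to a library of 1000000 (CPM) and scaled by TMM factors, which centre the bulk of the genes. A value of 1 is a 2-fold higher share in the heavy library and -1 a 2-fold higher share in the light library. Each library was scaled to its own total, so a ratio compares shares and not amounts of RNA per cell.

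Short coding sequences lay mostly on the light side of the gradient, and 6 of them are shown to make the size of such open reading frames visible. OST4 and the thymosins were chosen as some of the shortest, USMG5 and SEC61G for low ratios and SNN as an exception. Capitals mark the start and the stop codon. All were read from GRCh38 with GENCODE release 44, and the spans include introns where there are any. OST4, a subunit of the oligosaccharyltransferase that attaches sugars to new proteins, is encoded at chr2:27071349-27071462 (minus strand) by 1 coding exon. The thymosins TMSB4X and TMSB10, which bind actin monomers, lie at chrX:12976262-12976811 (plus strand) and chr2:84906018-84906423 (plus strand). USMG5, a small subunit of mitochondrial ATP synthase, lies at chr10:103392194-103392457 (minus strand), and SEC61G, the gamma subunit of the protein-conducting channel of the endoplasmic reticulum (ER), at chr7:54752411-54757588 (minus strand). SNN is a small membrane protein at chr16:11676060-11676326 (plus strand).
OST4: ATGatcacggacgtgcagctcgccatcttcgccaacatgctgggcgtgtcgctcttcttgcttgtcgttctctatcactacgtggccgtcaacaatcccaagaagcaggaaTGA
TMSB4X: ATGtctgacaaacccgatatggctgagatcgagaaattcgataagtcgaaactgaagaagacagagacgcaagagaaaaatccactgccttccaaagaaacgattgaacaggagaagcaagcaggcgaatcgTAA
TMSB10: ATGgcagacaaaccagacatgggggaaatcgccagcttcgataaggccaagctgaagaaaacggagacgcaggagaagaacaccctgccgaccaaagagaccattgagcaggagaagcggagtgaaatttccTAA
USMG5: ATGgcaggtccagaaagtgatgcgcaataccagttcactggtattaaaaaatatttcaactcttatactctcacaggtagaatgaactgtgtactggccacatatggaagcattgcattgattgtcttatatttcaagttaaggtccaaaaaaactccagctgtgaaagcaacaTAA
SEC61G: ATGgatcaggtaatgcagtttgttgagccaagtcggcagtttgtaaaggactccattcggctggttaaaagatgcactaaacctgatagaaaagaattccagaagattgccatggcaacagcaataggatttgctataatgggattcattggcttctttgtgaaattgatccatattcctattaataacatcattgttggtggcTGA
SNN: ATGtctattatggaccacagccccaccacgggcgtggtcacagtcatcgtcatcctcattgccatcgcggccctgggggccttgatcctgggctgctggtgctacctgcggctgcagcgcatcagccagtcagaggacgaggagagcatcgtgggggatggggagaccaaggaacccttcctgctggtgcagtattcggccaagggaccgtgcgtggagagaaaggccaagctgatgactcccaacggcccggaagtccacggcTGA

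These reading frames are 114 nucleotides long for OST4, 135 for each thymosin, 177 for USMG5, 207 for SEC61G and 267 for SNN. OST4 had 384 counts in the heavy and 1619 in the light library, a log2 ratio of -2.02 (-2.19 to -1.87). The 37-residue OST4 overlaps a gene on the other strand along 33.3% of its exons, and the strand setting of the counting is not given in the sources used here. TMSB4X had 177 and 771 counts and a ratio of -2.06 (-2.32 to -1.84), and TMSB10 had 13451 and 51375 counts and a ratio of -1.89 (-1.91 to -1.86). Both thymosin sequences share 98 of 135 bases (72.6%) and 33 of 44 encoded residues, and the intervals of their ratios overlapped. USMG5 had 636 counts in heavy and 3816 in light polysomes, and its ratio of -2.53 (-2.66 to -2.42) was the lowest of all 11084 genes. SEC61G had 784 and 3901 counts and a ratio of -2.27 (-2.38 to -2.16). SNN, with 382 and 478 counts, had a ratio of -0.28 (-0.47 to -0.08), nearer to even than the median of proteins of its length.

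The knockout libraries held 19238492 counts in heavy and 17457116 in light polysomes, and the totals of all 4 libraries ran from 17457116 to 20933675. The row of the ribosomal RNA precursor RNA45S5 took 4.32% (exact interval 4.31 to 4.33%) of the heavy and 5.97% (5.95 to 5.98%) of the light knockout library, against 2.61% and 3.59% in wild type. DICER1 itself, the gene named by the label, had 925 counts in the heavy and 889 in the light knockout library and 500 and 547 in the wild type libraries. Its reads are thus not absent from the libraries labelled knockout. What kind of allele the cells carry is not given in the sources used here, and counts summed over the gene leave the genotype unchecked. The DICER1 ratio was 0.10 (-0.03 to 0.24) with TMM factors and -0.08 with library totals, 0.83 below the median of its length class with the former. The epithelial identity of the line was visible in EPCAM, with 17555 heavy and 15386 light counts, and in CDH1, with 2667 and 1162. Of 20 markers of fibroblasts, endothelium and blood, 7 were at 0 in both knockout libraries and 3 had 50 or more counts in both, namely COL1A1, ACTA2 and CD68. Summed over the 20 genes there were 1416 heavy and 688 light counts, or 505 and 384 without COL1A1. In bulk libraries fewer cells of a type and less RNA per cell cannot be told apart.

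Over the 11084 genes the ratio ran from -2.53 to 2.79, with a median of 0.11 and a standard deviation across genes of 0.90. Heavy polysomes held 2-fold or more of 2097 genes (18.9%) and light polysomes of 1189 (10.7%), together 29.6%. That split depended on the scaling. Of the genes 2-fold to either side, 63.8% were on the heavy side with TMM factors and 46.4% (1507 against 1744 genes) with plain library totals, because the totals move the median gene from 0.11 to -0.08. The scaling moves all ratios together and leaves their order, and the values below are best read against the median of 0.11. Counts of 2-fold genes in the lists below are likewise best read against the 18.9% heavy and 10.7% light of all genes. Reads shared by overlapping genes are a further limit. Beside the cases given with their values, the exons of ACTA2, CCT5, GAPDH, MRPS9, NDUFS7, NHP2 and SRSF9 overlap a gene on the other strand over 20% or more of their length, and those of CD68, EDC4, HSPE1, IFI6, IFITM1 and SDHD a gene on the same strand. The 116 genes just inside the limit of 50 counts (50 to 54 in the lower library) had a median of -0.05, and the 130 genes just outside it (45 to 49) one of -0.28.

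The ratios followed protein length. Length was known for 10813 coding genes, and its rank correlation with the ratio across genes was 0.639 (Spearman, a description, since genes of 1 pair of libraries are not replicates). Of 218 genes encoding at most 100 residues, 178 (81.7%) were 2-fold light and 0 were 2-fold heavy, with a median of -1.53. In what follows a class or band leaves out its lower bound. Among 1106 genes of 100 to 200 residues the median was -1.0, 550 were 2-fold light and 1 was 2-fold heavy. The medians crossed 0 between the class of 300 to 400 residues, at -0.10, and that of 400 to 500, at 0.21. In the class of 500 to 700 residues 493 of 1932 genes were 2-fold heavy and 16 were 2-fold light. Above 1500 residues the median was 0.93, and 275 of 604 genes (45.5%) were 2-fold heavy against 5 that were 2-fold light. The curve flattened with length, since the median moved by more between the first pair of classes than over all classes above 700 residues.

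**Figure D1:**
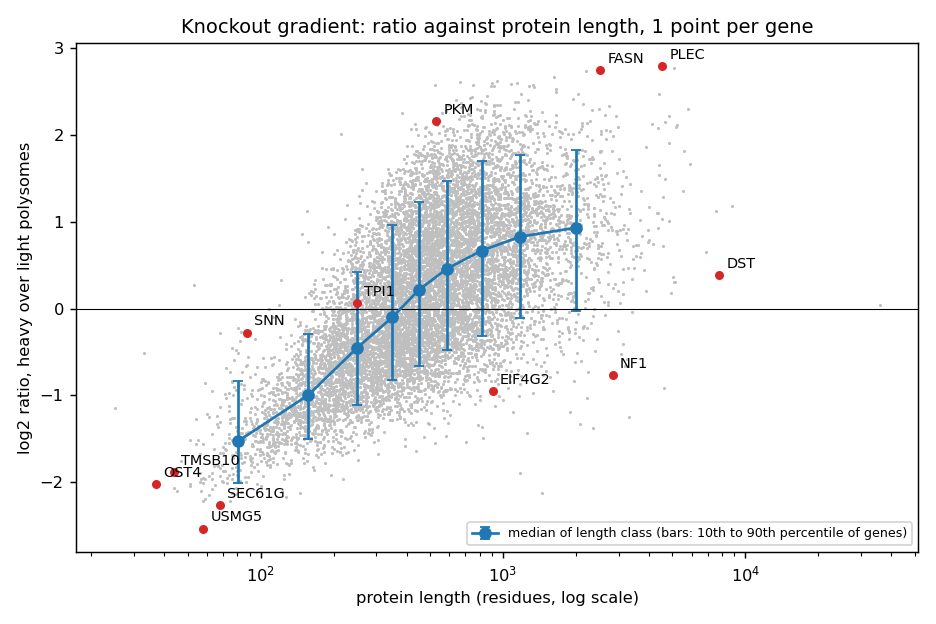
Log2 ratio of heavy over light polysomes in the knockout gradient (y axis) against protein length in residues (x axis, log scale), 1 grey point per coding gene. Blue points are the medians of 9 length classes with bars from the 10th to the 90th percentile of genes, rising from -1.53 to 0.93; red points are named genes, and within a class the genes spread over a wide range.

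Among genes with 20 CPM or more, those farthest on the heavy side, ranked by the lower limit of the interval, encode mostly long proteins. PLEC, the cytoskeletal linker plectin, had 5520 heavy and 823 light counts and the highest ratio of all genes, 2.79 (2.69 to 2.90), a 6.91-fold higher share in heavy polysomes. FASN, the fatty acid synthase, had 18514 and 2853 counts and a ratio of 2.74 (2.69 to 2.80). INTS1, a scaffold of the Integrator complex that processes small nuclear RNAs, had 4506 and 696 counts and a ratio of 2.74. The nuclear lamina gene LMNA had a ratio of 2.61, with 24064 and 4065 counts, and the replicative helicase subunit MCM2 at 2.60. MCM2 overlaps a gene on the other strand along 32.4% of its exons. DDB1, an adaptor of a ubiquitin ligase, had a ratio of 2.59, the nucleolar protein NOC2L one of 2.58, and the dynactin subunit DCTN1 and the chromatin remodeller SMARCA4 had ratios of 2.57 and 2.54. Among the 12 highest by that limit were also UNC45A, a myosin chaperone, at 2.63, and the RNA-binding protein SAFB at 2.57.

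At the other end, again among genes with 20 CPM or more, stood subunits of respiratory complexes and other very short proteins. Beside USMG5 and SEC61G these included NDUFB1 of respiratory complex I, with 186 heavy and 903 light counts and a ratio of -2.22 (-2.47 to -2.004), and COX6C of cytochrome c oxidase, with 1880 and 9018 counts and a ratio of -2.21. LINC00998 is named as a noncoding RNA, but GENCODE release 44 gives it a protein of 59 residues. It had 369 and 1751 counts and a ratio of -2.19. The metallothionein MT1E, which binds zinc and copper, had 3807 and 17749 counts and a ratio of -2.17, and the neighbouring MT1X, of which 40.8% of the exons overlap another gene on the same strand, had one of -2.15. TMEM258, a subunit of the oligosaccharyltransferase, had a ratio of -2.13, and COX7A2, UQCR10 and the ribosomal protein homologue RPS27L had -2.11, -2.08 and -2.11.

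Genes of like length were spread widely over the gradient. Within proteins of 400 to 500 residues the 10th and the 90th percentile of genes were -0.66 and 1.23. Among proteins of at most 150 residues with 20 CPM or more, SSBP1, the single-stranded DNA-binding protein of mitochondria, was one of the 6 least light. It had 4495 heavy and 5795 light counts and a ratio of -0.32 (-0.38 to -0.26). CHTF8, a factor of sister chromatid cohesion, had the highest ratio of these, 0.33, but 96% of its exons overlap another gene on the same strand, so its reads cannot be assigned with certainty. Among proteins of 1500 residues or more with 20 CPM or more, the lowest ratios belonged to NACA, MUC3A, OBSL1, LCOR, KIAA2018 and CAMTA1. NACA, a chaperone of new peptides at the ribosome, had 4971 and 12924 counts and a ratio of -1.33, and its reference transcript is a long form that the reads need not come from. KIAA2018 had 378 and 651 counts and a ratio of -0.73. The longest protein with 20 CPM or more, the cytoskeletal linker DST with 7818 residues, had 1469 heavy and 1160 light counts and a ratio of 0.39, below the median of its class. AHNAK2 and RNF213, 2 other giants, had ratios of 2.30 and 2.11. In a list of 63 measured giant coding mRNAs 36 were 2-fold heavy and 0 were 2-fold light, with a median of 1.12. In the class above 1500 residues 45.5% of genes were 2-fold heavy and 0.83% 2-fold light, with a median of 0.93. Relative to their length classes the median of the 63 genes was 0.19, with 39 above. The lowest of the 63 were NF1, the neurofibromin tumour suppressor, at -0.77 with 176 and 311 counts, VPS13A at -0.67 and ATM, the DNA damage kinase, at -0.52.

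The mRNAs of the translation machinery lay on both sides of the gradient. Of 44 measured large-subunit ribosomal proteins 24 were 2-fold light and 0 were 2-fold heavy (median -1.09), and of 27 small-subunit proteins 13 and 0 (median -1.0). Relative to proteins of the same length class these medians were -0.21 and -0.13. RPL3 and RPL4, the longest of the large subunit here at 403 and 427 residues, both had ratios of 0.00, with 30649 heavy and 31572 light counts for RPL3. RPL39, with 51 residues, had 176 and 745 counts and a ratio of -2.02. RPS3 had 27737 and 37357 counts and a ratio of -0.38. Ribosomal protein genes have many near-identical copies in the genome, and how reads that map to several places were counted is not given in the sources used here. Other mRNAs with the 5′ terminal oligopyrimidine tract that marks ribosomal protein mRNAs had a median of 0.39, with 1 of 17 2-fold heavy and 1 2-fold light. Elongation factor EEF2 had 75047 heavy and 37991 light counts and a ratio of 1.03 (1.01 to 1.05), EEF1A1 a ratio of 0.54, poly(A)-binding protein PABPC1 one of -0.23 and TPT1 one of -0.68.

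Initiation factors spanned the range, with 10 of 34 2-fold heavy and 4 2-fold light and a median of 0.31. Relative to their length classes the median was 0.20, with 21 of 34 above. EIF4G1, the scaffold of the cap-binding complex, had 10036 heavy and 2562 light counts and a ratio of 2.02 (1.95 to 2.08). EIF4E, the cap-binding subunit that EIF4G1 holds, had 702 and 1949 counts and a ratio of -1.42 (-1.55 to -1.30). EIF4G2, a relative of EIF4G1 with 907 residues whose translation is known to start at a GUG codon, had 14819 and 29495 counts and a ratio of -0.95 (-0.97 to -0.92), opposite to most proteins of its length. EIF3A, EIF3B and EIF3D, large subunits of the factor that binds the small ribosomal subunit, had ratios of 1.61, 1.83 and 1.75.

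Aminoacyl-tRNA synthetases, which charge transfer RNAs with amino acids, were heavy almost throughout. Of the 20 cytosolic enzymes 18 were 2-fold heavy, 0 were 2-fold light and all 20 had ratios above 0 against 53.9% of all genes. Their median of 1.495 was 0.96 above that of their length classes. AARS, the alanyl enzyme, was highest, with 11472 heavy and 2330 light counts and a ratio of 2.35, and KARS, the lysyl enzyme, lowest, with 7306 and 4047 counts and a ratio of 0.90. The 17 mitochondrial enzymes had a median of 0.83, or 0.36 relative to their length classes, with 6 of them 2-fold heavy. They ranged from NARS2 at 0.03 (-0.14 to 0.20) to EARS2 at 1.58 (1.42 to 1.75). Nucleolar factors that assemble ribosomes had a median of 1.28, or 0.80 relative to their length classes, with 22 of 35 2-fold heavy and 3 2-fold light. Nucleolin, NCL, had 30930 and 8340 counts and a ratio of 1.94, and MYBBP1A a ratio of 2.58. The small box H/ACA proteins NOP10 and NHP2, which guide pseudouridylation, were at -1.81 and -1.48.

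Subunits of the respiratory complexes were spread over the gradient. Of 30 accessory subunits of complex I, 21 were 2-fold light and 2 were 2-fold heavy (median -1.21), whereas 3 of 7 core subunits were 2-fold heavy and 0 were 2-fold light (median 0.26). NDUFS1, an iron-sulphur subunit, had 2318 heavy and 790 light counts and a ratio of 1.60. The core subunits NDUFV2, NDUFS8 and NDUFS7 were below 0, at -0.73, -0.64 and -0.31. The accessory subunits NDUFA9 and NDUFA10, at 377 and 355 residues much longer than the other accessory ones but for NDUFV3, had ratios of 1.43 and 1.44. In complexes III and IV 15 of 21 subunits were 2-fold light, with a median of -1.67. Of 4 subunits above 0, the core proteins UQCRC1 at 1.14 and UQCRC2 at 1.44 were 2-fold heavy. In the ATP synthase, ATP5A1 and ATP5B, the subunits that form the catalytic head, had ratios of 1.67 and 1.41, with 42391 heavy and 16474 light counts for ATP5B. ATP5C1, the rotating shaft, was at 0.65, and 9 of the 18 subunits were 2-fold light. Relative to their length classes the medians were -0.17 for the ATP synthase and -0.37 for complexes III and IV. In complex I they were -0.16 for the accessory and 0.72 for the core subunits.

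Mitochondrial ribosomal proteins stood between these, with a median of -0.37 over 76 genes, 7 of them 2-fold heavy and 24 2-fold light. Relative to their length classes they were 0.21 higher. MRPS9 had 1932 heavy and 788 light counts and a ratio of 1.34, MRPL33 with 65 residues had 311 and 1316 counts and a ratio of -2.03, and MRPL3 was even at 0.06 with TMM factors and -0.13 with library totals. The enzymes of the citric acid cycle lay on the heavy side, with 11 of 22 2-fold heavy, 0 2-fold light and all 22 above the median of their length class, where 50% of coding genes are. DLST, a subunit of the oxoglutarate dehydrogenase, was highest at 1.79 with 1560 and 464 counts, and SDHD, a small membrane anchor of succinate dehydrogenase, lowest at -0.69. Of 20 proteins that import others into mitochondria, 12 were 2-fold light, against 10.7% of all genes, and TIMM50 alone was 2-fold heavy, at 1.003. Relative to their length classes the median was 0.01, with 11 of 20 above, so as a set they lay where proteins of their length did.

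Large assemblies outside the mitochondrion also had mRNAs at both ends of the gradient. In RNA polymerase II the large subunits POLR2A and POLR2B, which form the active site, had 5720 and 6423 heavy and 1819 and 1927 light counts and ratios of 1.70 and 1.78. POLR2K, with 58 residues, had 858 and 3573 counts and a ratio of -2.01, and 6 of the 12 subunits were 2-fold light. In the splicing machinery 13 of 16 Sm and LSm ring proteins were 2-fold light (median -1.45), while 19 of 23 larger spliceosome proteins were 2-fold heavy and 0 were 2-fold light (median 1.55). PRPF8, the protein at the heart of the spliceosome, had 14620 heavy and 3101 light counts and a ratio of 2.28, and SNRPG of the Sm ring had 166 and 757 counts and a ratio of -2.13. Relative to their length classes the medians were 1.12 for the larger spliceosome proteins, -0.19 for the ring proteins and -0.18 for RNA polymerase II. SNRPB was the 1 Sm protein above 0, at 0.81 with 13929 and 8231 counts. SR and hnRNP proteins, which choose splice sites and package new RNA, had a median of 0.90 with 16 of 34 2-fold heavy and 0 2-fold light. Relative to their length classes the median was 1.003. TAF15 and EWSR1, RNA-binding proteins, were at 2.35 and 2.19, and SRSF9 was lowest at -0.57.

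**Figure D2:**
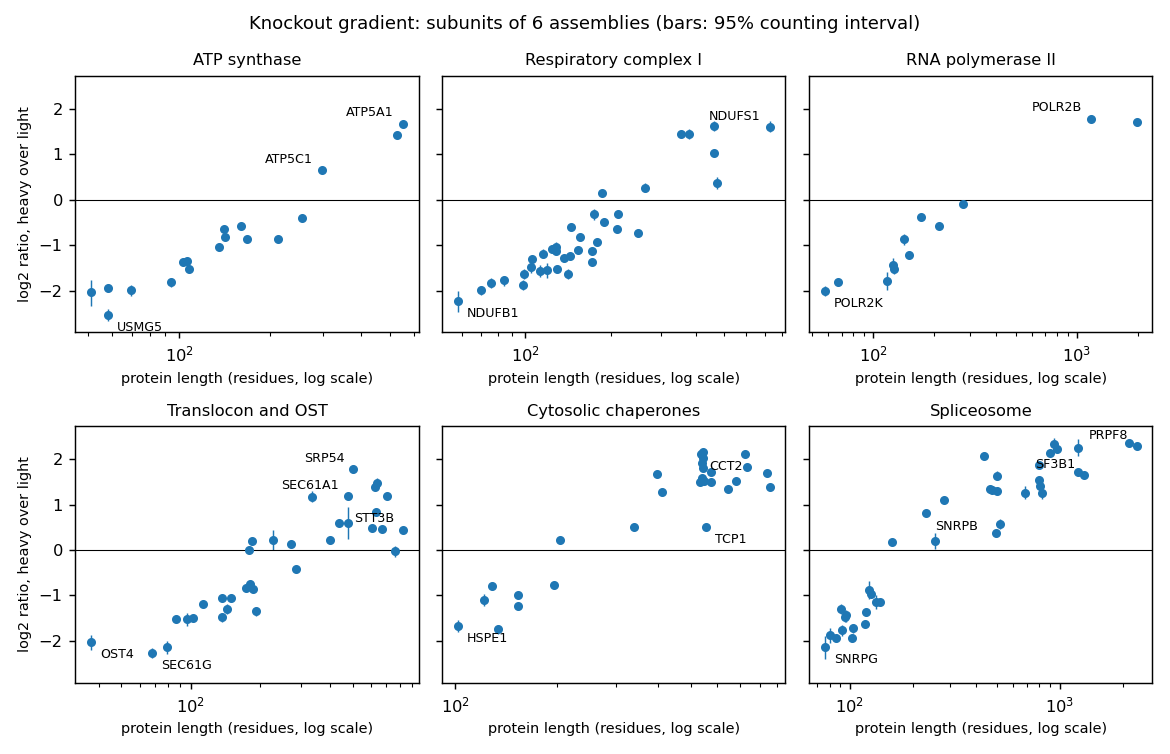
Log2 ratio of heavy over light polysomes in the knockout gradient (y axis) against protein length in residues (x axis, log scale) for the subunits of 6 assemblies or pathways, 1 point per gene with its 95% counting interval. Within each panel short subunits lie mostly below 0 and long ones mostly above, as for USMG5 at -2.53 and ATP5A1 at 1.67 in the ATP synthase; TCP1 at 0.51 is the lowest of the long chaperones.

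Chaperones of the cytosol, with HSPA9, HSPD1 and HSPE1 of the mitochondrion listed beside them, had a median of 1.49, 1.04 above their length classes. Of 28 genes, 18 were 2-fold heavy and 4 were 2-fold light. HSP90AB1, a form of the HSP90 chaperone, had 110619 heavy and 26416 light counts and a ratio of 2.11, its relative HSP90AA1 had 128818 and 37540 counts and a ratio of 1.83, and STIP1, which links HSP70 to HSP90, was highest at 2.16. In the CCT chaperonin, which folds actin and tubulin, CCT2, CCT5 and CCT7 had ratios of 2.11, 1.91 and 2.02, while TCP1, its first subunit, had one of 0.51. The 4 genes that were 2-fold light were the prefoldin subunits PFDN4, PFDN2 and PFDN1 and the small mitochondrial chaperonin HSPE1, at -1.75, -1.24, -1.09 and -1.67. The 14 subunits of the proteasome core, all of similar length, stayed within 2-fold. They ranged from PSMB2 at -0.90 to PSMB7 at 0.98, with a median of 0.21 that was 0.67 above their length classes. The regulatory particle had 11 of 21 subunits 2-fold heavy and 1, SHFM1 with 70 residues, 2-fold light. Its median relative to the length classes was 0.85.

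In the secretory pathway the translocon, signal recognition particle and oligosaccharyltransferase had 12 2-fold light and 6 2-fold heavy genes of 34, with a median of -0.01. The shares of all genes were 10.7% light and 18.9% heavy. Relative to their length classes the median of the 34 was 0.09, with 22 above. SRP54, the subunit that binds signal peptides, had 4038 heavy and 1217 light counts and a ratio of 1.78, and SEC61A1, the pore of the channel, had 5566 and 2516 counts and a ratio of 1.19. SEC61B and SEC61G, its small partners, had -1.52 and -2.27. ER chaperones had a median of 0.77, with 8 of 19 2-fold heavy and 0 2-fold light. Relative to their length classes their median was 0.31, with 14 of 19 above. HSPA5, the HSP70 of the ER, had 31985 and 13504 counts and a ratio of 1.29, and HYOU1 was highest at 1.53. SDF2L1 was lowest at -0.86 with 620 and 1166 counts.

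Most metabolic enzymes lay above other genes of their size. All 18 measured glycolytic genes were above the median of their length class, by 1.36 at the median, and 14 were 2-fold heavy. GAPDH had 131636 heavy and 50242 light counts and a ratio of 1.44 (1.42 to 1.45). ENO1 and PKM, the enolase and pyruvate kinase of lower glycolysis, had 2.13 and 2.16. Hexokinase HK1 was highest at 2.24, with 3698 and 806 counts. TPI1, triosephosphate isomerase, was lowest, at 0.06 with TMM factors and -0.12 with library totals. Of 28 genes of cholesterol and fatty acid synthesis, 11 were 2-fold heavy and 0 2-fold light (median 0.88), and 24 lay above their length class. LSS, which closes the sterol ring system, had a ratio of 2.33 and ACLY, which supplies acetyl-CoA, one of 1.95. TM7SF2, a sterol reductase, was lowest, at -0.62 with 897 and 1423 counts, 0.83 below the median of its length class. INSIG1, which holds back sterol synthesis, was at -0.41 with 3801 and 5210 counts.

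**Figure D3:**
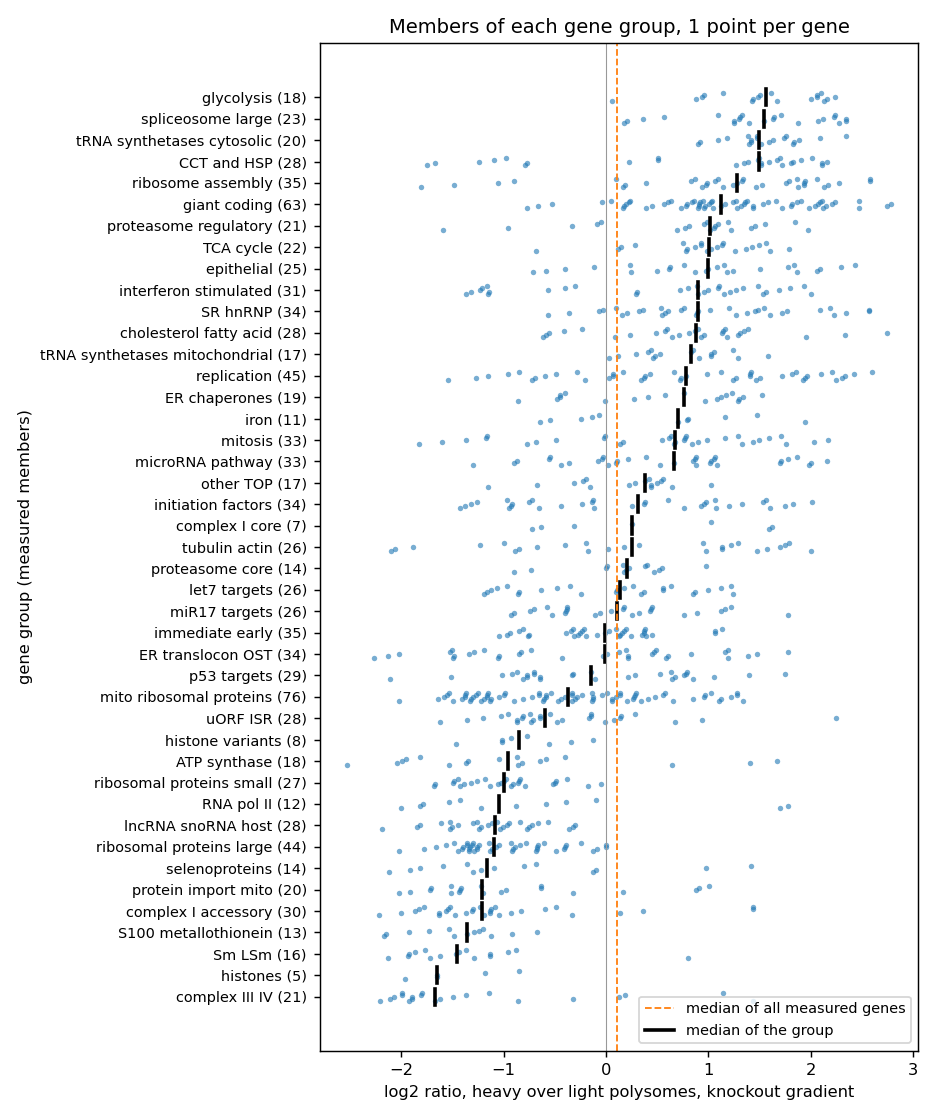
Log2 ratio of heavy over light polysomes in the knockout gradient (x axis) for the measured members of each gene group (y axis, with the number of measured genes), 1 blue point per gene, black bars for group medians and a dashed line for the median of all measured genes, 0.11. Glycolysis lies at the top with a median of 1.56 and complexes III and IV at the bottom with -1.67.

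Among genes of the cell cycle, 21 of 45 replication genes and 10 of 33 mitotic genes were 2-fold heavy, against 18.9% of all genes. On the 2-fold light side were 3 and 5, against 10.7% of all genes. Relative to their length classes the medians were 0.57 and 0.33, with 37 and 21 genes above. Helicase subunits MCM5 and MCM7, DNA ligase LIG1 and polymerase subunit POLD1 had ratios of 2.43, 2.25, 2.33 and 2.30. PCNA, the sliding clamp, had 6850 heavy and 10677 light counts and a ratio of -0.59, below the median of its length class. The mitotic kinesin KIF2C was at 2.17 and the kinase PLK1 at 1.76, with 10099 and 3076 counts. CKS2 and CKS1B, small partners of cyclin-dependent kinases, were at -1.82 and -1.37. Clustered histone genes were mostly not measured, with 5 of 29 reaching 50 counts in both libraries and 4 of these 2-fold light. Their mRNAs lack a poly(A) tail, and whether the libraries selected for one is not given in the sources used here. Among polyadenylated histone variants H2AFZ had 6214 and 17693 counts and a ratio of -1.46.

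Genes of the epithelial state were mostly on the heavy side, with 12 of 25 2-fold heavy and 0 2-fold light (median 0.99), against 18.9% and 10.7% of all genes. Relative to their length classes the median was 0.49, with 22 of 25 above. The junction proteins JUP and CTNNB1 were highest, at 2.44 and 2.30, with 12395 and 2363 counts for JUP. The keratins KRT8, KRT18 and KRT19 had ratios of 2.09, 1.78 and 1.87, and the transcription factor CDX2 was lowest, at -0.71 with 219 and 372 counts. Of 26 tubulin, actin and actin-binding genes 10 were 2-fold heavy and 4 2-fold light. They had a median of 0.69 relative to their length classes, with 18 of 26 above. ACTB had the most counts of all coding genes, 131854 heavy and 68962 light, and a ratio of 0.98. The tubulin TUBB4B was at 2.004 and the thymosin TMSB15A at -2.10. Of 13 S100 and metallothionein genes, all of them short, 11 were 2-fold light and 0 were above 0. Among all genes of at most 100 residues 81.7% were 2-fold light, and among those of 100 to 200 residues 49.7%. Relative to their length classes the median of the 13 genes was -0.13, with 5 above. MT2A had 10487 and 41224 counts and a ratio of -1.93, and S100A6 had 10739 and 36737 counts and a ratio of -1.73. Of 31 interferon-stimulated genes 13 were 2-fold heavy and 7 2-fold light, against 18.9% and 10.7% of all genes. Their median was 0.60 relative to their length classes, with 20 of 31 above. TRIM25 and OAS3 were at 2.001 and 1.94, and the 7 light genes were IFI27L2, IFI6, IFITM1, IFITM2, ISG20, IFITM3 and B2M, from -1.37 to -1.14.

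Genes listed for upstream open reading frames or a part in the integrated stress response lay mostly below others of their length. Of these 28 genes, 7 were above the median of their length class, against 50% of coding genes, and the median difference was -0.35. ATF4, the transcription factor of that response, had 4383 heavy and 7579 light counts and a ratio of -0.74 (-0.80 to -0.69). SAT1, which breaks down polyamines and whose translation polyamines raise, had 5030 and 16048 counts and a ratio of -1.63. DDIT3, a target of ATF4, was at -1.36 with 234 and 624 counts, and OAZ1, the antizyme made by a ribosomal frameshift, was at -1.20 with 9000 and 21396 counts. ODC1, the enzyme that antizyme binds, was even, with 9054 and 9393 counts and a ratio of -0.01 (-0.05 to 0.04). ASNS, asparagine synthetase, was the 1 gene of this list that was 2-fold heavy, at 2.25 with 17256 and 3744 counts, and 99.5% of its exons overlap another gene on the same strand.

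The 11 measured genes of iron metabolism had a median of 0.70, with 3 2-fold heavy, 0 2-fold light and 8 above their length class. Ferritin mRNAs, which carry an iron-responsive element in the leader, had ratios below 0, with 10293 heavy and 15516 light counts and a ratio of -0.55 for FTH1 and 11757 and 18939 counts and a ratio of -0.64 for FTL. Both lay above the median of their length class, by 0.45 and 0.36. TFRC, the transferrin receptor, whose elements lie at the other end of the mRNA, had 6575 and 3903 counts and a ratio of 0.80. Proteins that contain selenocysteine, which is read from a stop codon, had a median of -1.16, and -0.57 relative to their length classes, with 8 of 14 2-fold light. GPX4, which removes lipid peroxides, had 4809 and 14959 counts and a ratio of -1.59. TXNRD2, a mitochondrial thioredoxin reductase, was the 1 member on the 2-fold heavy side, at 1.42 with 543 and 209 counts. Among immediate early genes 3 of 35 were 2-fold heavy and 1 was 2-fold light, against 18.9% and 10.7% of all genes. They had a median of -0.01, or 0.19 relative to their length classes. MCL1, a survival factor of short half-life, was highest at 1.13, MYC was at 0.37 and BTG1 lowest at -1.05. Of 29 p53 targets 3 were 2-fold heavy and 3 2-fold light, from RPS27L at -2.11 to the DNA repair protein XPC at 1.75. The share of 2-fold light targets was thus near the 10.7% of all genes, and that of 2-fold heavy ones below the 18.9%. Relative to their length classes the median of the targets was 0.18, with 18 of 29 above.

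The genes of the microRNA pathway itself had a median of 0.67 over 33 measured members, and 0.03 relative to their length classes. Of these, 12 were 2-fold heavy and 1 was 2-fold light. EDC4, a scaffold of mRNA decapping, had 1376 heavy and 317 light counts and the highest ratio, 2.16, and DIS3L2, an exonuclease of uridylated RNA, one of 2.002. XPO5, which exports microRNA precursors, was at 1.70, TNRC6C, which joins Argonaute to the deadenylases, at 1.71, and AGO2, the Argonaute that slices, at 0.39. CNOT7 and CNOT6, catalytic deadenylases, were at -1.30 and -0.90, and CNOT1, their scaffold, at 1.07. CNOT7 overlaps a gene on the other strand along 29.9% of its exons. The DICER1 partners TARBP2 and PRKRA were at -0.54 and -0.87.

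Published targets of let-7 and of the miR-17 family, both of which DICER1 makes, lay near the middle of the gradient. The 26 let-7 targets had a median of 0.14 with TMM factors and -0.04 with library totals. Of these targets 3 were 2-fold heavy and 4 2-fold light, against 18.9% and 10.7% of all genes. HMGA2, a chromatin protein of 109 residues with many let-7 sites, had 1641 heavy and 3788 light counts and a ratio of -1.16. NRAS, a small GTPase, was at -1.19, MYC as above at 0.37, and CCND1, cyclin D1, at 1.22 with 15251 and 6746 counts. The 26 miR-17 family targets had a median of 0.11 with TMM factors and -0.08 with library totals. On the 2-fold heavy side were 4 of them and on the 2-fold light side 0, against the same 18.9% and 10.7%. STAT3 was highest at 1.78, and CDKN1A, a cell cycle inhibitor, was at -0.70. Relative to their length classes the medians of the 2 lists were 0.04 and -0.19.

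RNAs without a known protein were mostly on the light side. Of 116 genes that GENCODE types as long noncoding RNA, 52 were 2-fold light, 2 were 2-fold heavy and 9 had ratios above 0, with a median of -0.89. Among all genes 10.7% were 2-fold light, 18.9% were 2-fold heavy and 53.9% had ratios above 0. In a list of 28 measured noncoding and snoRNA host transcripts, 17 were 2-fold light and 0 were above 0, though GENCODE gives 4 of them a coding sequence. MALAT1, a nuclear RNA of great abundance, had 5659 heavy and 16621 light counts and a ratio of -1.51, and 83.7% of its exons overlap a gene on the other strand. UCA1 was at -1.30 with 2057 and 5231 counts, the snoRNA hosts ZFAS1 and GAS5 were at -1.53 and -1.16, and LINC00657, also called NORAD, was at -0.36 with 1189 and 1576 counts. The pseudogenes ANXA2P2 and PDIA3P1 were on the heavy side at 1.81 and 1.34. They are near copies of ANXA2 and PDIA3, and reads of parent and copy cannot be separated with certainty.

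Within a band of protein length, the ratio also varied with the length of the 5′ untranslated leader. Among 3279 genes encoding 400 to 700 residues with counts in all 4 libraries, the rank correlation of leader length with the knockout ratio was -0.353. These genes were divided into 4 groups of near-equal size. With leaders of 2 to 75 nucleotides the median ratio was 0.77, with 76 to 144 nucleotides 0.53, with 145 to 260 nucleotides 0.21 and with 261 to 2761 nucleotides 0.02. Protein length was nearly the same in these groups, with medians of 515, 516, 527 and 526 residues, whereas abundance declined, with median levels of 44.01, 38.3, 34.1 and 26.9 CPM. Abundance had a rank correlation of 0.250 with the knockout ratio in this band, and its part in this pattern was not tested. The correlation had the same sign in proteins of 200 to 400 residues (-0.197), 700 to 1000 (-0.332) and above 1000 (-0.238), and the opposite sign in those of 100 to 200 (0.112) and of at most 100 (0.357). For the length of the 3′ untranslated region the correlation was -0.149 in the band of 400 to 700 residues, -0.250 at 700 to 1000 and -0.252 above 1000. In shorter proteins it was 0.026 at 200 to 400 residues, 0.213 at 100 to 200 and 0.383 in those of at most 100. Leader length is thus not the only feature that went with the ratio. Both lengths are those of 1 reference transcript per gene, which these cells need not use.

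**Figure D4:**
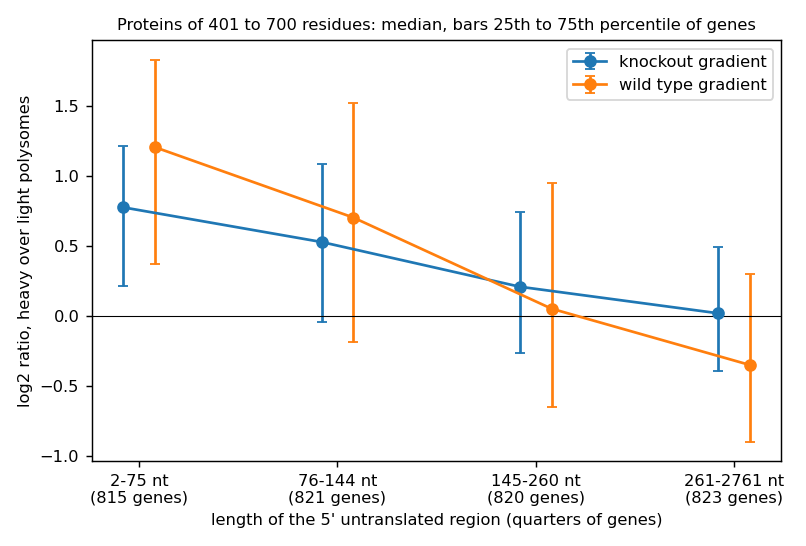
Median log2 ratio of heavy over light polysomes (y axis) for 4 groups of genes by the length of the 5′ untranslated region (x axis, with the number of genes), for proteins of 400 to 700 residues in the knockout (blue) and wild type (orange) gradients. Bars run from the 25th to the 75th percentile of genes; the knockout medians run from 0.77 down to 0.02 and the wild type medians from 1.20 to -0.35.

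Zinc finger genes were lighter than others of their length in the middle bands. With 3 or more C2H2 finger motifs in the encoded protein, 186 genes of 400 to 700 residues had a median of 0.01, against 0.40 for the 3095 others, and 61 genes of 700 to 1000 residues had 0.16 against 0.70 for 1432 others. Of the 186, 5 were 2-fold heavy and 4 2-fold light. Their leaders were longer, with a median of 210 nucleotides against 139. In the band of 200 to 400 residues the medians were -0.26 for 27 finger genes and -0.29 for the others, so that the difference was not seen there.

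The wild type gradient ordered the genes much as the knockout gradient did, but over a wider range. Across 10834 genes with 50 or more counts in all 4 libraries the rank correlation of the ratios was 0.920, a description across genes. The standard deviation across genes was 0.905 in the knockout and 1.17 in the wild type gradient. In wild type 2954 of 11101 genes (26.6%) were 2-fold heavy and 1943 (17.5%) 2-fold light. Of the 2062 genes 2-fold heavy in the knockout, 91.1% were so in wild type, and these made up 64.4% of the 2919 that were 2-fold heavy there. On the light side the shared genes were 79.8% of 1176 in the knockout and 49.9% of 1881 in wild type, and 0 genes were 2-fold heavy in one gradient and 2-fold light in the other. The rank correlation with protein length, over 10598 coding genes, was 0.642 in the knockout and 0.4996 in the wild type gradient. With 1 gradient per genotype, a genotype difference and a difference between the runs or the cuts of the gradients cannot be told apart.

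The knockout ratio exceeded the wild type ratio by 2-fold or more for 96 genes (0.886%) and fell short of it by that much for 265 (2.45%). This split turned with the scaling, to 265 against 107 with library totals and 44 against 431 with DESeq2 size factors. MFHAS1 had 383 heavy and 347 light counts in the knockout and 208 and 612 in wild type, ratios of 0.19 and -1.30 and a difference of 1.49 (1.18 to 1.80). KIAA2018, RC3H2, TAF4B and AREL1 had differences of 1.33, 1.28, 1.24 and 1.22, with TNFRSF21 at 1.09 and the kinase IRAK1 at 1.08. ODC1, which makes putrescine, had 5722 heavy and 14293 light counts in wild type, so that its ratio of -0.01 in the knockout stood 1.06 (1.004 to 1.13) above the -1.07 of wild type. All 8 genes named on this side had wild type ratios below -1.

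CLU, the secreted chaperone clusterin, had 22543 heavy and 9411 light counts in the knockout and 13222 and 1873 in wild type, ratios of 1.31 and 3.07 and a difference of -1.76 (-1.84 to -1.68). HSP90B1, the HSP90 of the ER, had 47699 and 25136 counts in the knockout and 52019 and 11006 in wild type, with a difference of -1.52. VGF, a secreted neuropeptide precursor, had a difference of -1.74, PDIA3, a disulphide isomerase, one of -1.62, the lysosomal protease TPP1 one of -1.48 and the membrane protein APP one of -1.38. PDIA3P1 and HSP90B2P, pseudogene copies of PDIA3 and HSP90B1, had -1.61 and -1.59. These 8 genes had wild type ratios of 2.49 or more, and the knockout gradient had the narrower range of ratios.

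**Figure D5:**
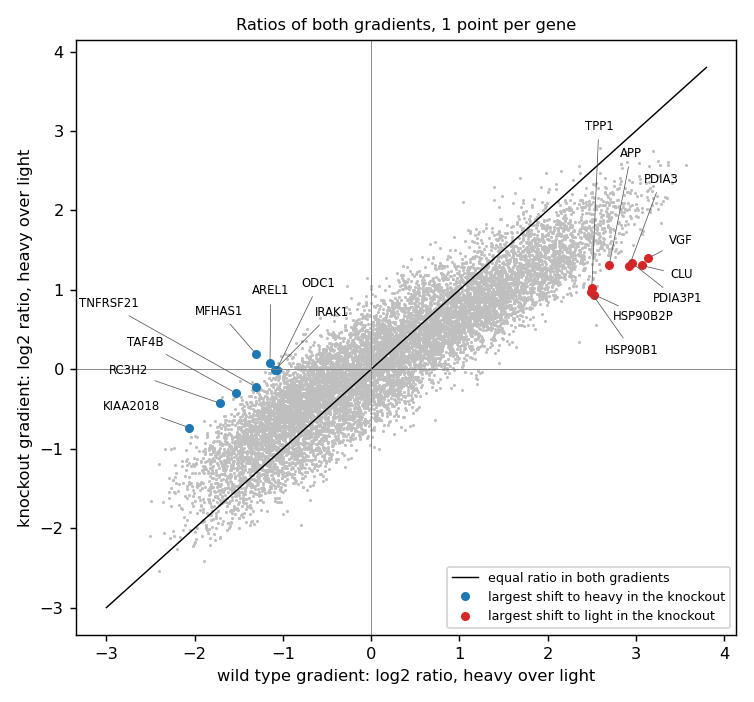
Log2 ratio of heavy over light polysomes in the knockout gradient (y axis) against that in the wild type gradient (x axis), 1 grey point per gene with 50 or more counts in all 4 libraries and a line where both are equal. Blue points are the 8 named genes that lie farthest to the heavy side in the knockout and red points the 8 farthest to the light side. The 25th and 75th percentiles of genes were -0.54 and 0.81 in the knockout and -0.75 and 1.09 in the wild type gradient. The lowest ratios were alike, at -2.53 and -2.51.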

How the data were processed

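RNA from heavy and light polysomes of HCT116 cells was sequenced, with 1 library each for the labelled Dicer1 knockout and the wild type. The deposited values are whole-number read counts per gene symbol. Per the submitters' processing notes CASAVA, STAR, HTSeq and the build hg19 were used, while no source used here gives their versions, the annotation or the strand setting. The counts are not normalised, since library totals differ from 17457116 to 20933675. Of 26364 symbols, 7814 were at 0 in all libraries.

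TMM factors over all 4 libraries were computed with edgeR 4.0.16 in R 4.3.3 (0.926 for knockout heavy, 1.05 for knockout light). The log2 ratio used scaled CPM with a prior count of 2, in genes with 50 or more counts in both knockout libraries. Exact 95% intervals (Clopper-Pearson on the heavy share) and the floor of 3 counts (0.156 and 0.172 CPM) cover counting error only, as PCR copies of a molecule are counted more than once where no molecular identifier marks them. The 95% intervals of differences from wild type used a normal approximation from the 4 counts. The code was run on simulated counts with known ratios and counting error only, which says nothing of variation between cultures or gradients. A gene was counted at 2-fold or more, and no p-value was computed. The alternatives were library totals, DESeq2 1.42.0 size factors, TMM over the 2 knockout libraries, other count limits, folds and prior counts, and the wild type gradient.

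Gene types, protein, leader and exon lengths and coding sequences came from GENCODE release 44 (GRCh38), with 23035 symbols matched directly, 1356 through older symbols and 1973 unmatched. Lengths are those of the Ensembl canonical transcript. A C2H2 finger was counted as Cys, any 2 residues, Cys, any 12, His, any 3, His. Intervals came from scipy 1.17.1, and tables were handled with pandas 2.3.3 and numpy 2.4.6 under Python 3.11.15. The RNA45S5 row is ribosomal RNA and stayed in the totals.

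The members and the 44 gene lists were chosen with earlier results of these data known. Named genes are DICER1 and, at 20 CPM or more on average, the 12 highest and 12 lowest by the interval limit nearest 0, the 10 most abundant, the 8 shortest and 8 longest proteins, the 6 highest of up to 150 residues and the 6 lowest of 1500 or more. They are also the extremes and the 2 most abundant of each list with further members by role, the 10 most abundant genes without a protein, and the 8 largest differences from wild type each way. A gene had a protein where GENCODE gives it a coding sequence. A few genes that the rule names are not reported here.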

Additional observations from a re-analysis of the deposited data

Results flagged for a closer look

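With TMM factors, several genes and lists lay on opposite sides of even in the 2 gradients, light in the knockout and heavy in wild type or the reverse. These factors were 0.902 for wild type heavy and 1.14 for wild type light, so plain library totals lower every wild type ratio. Sides near 0 thus depend on the scaling, and the wild type sides with library totals are not given here. Each difference below is the knockout minus the wild type log2 ratio, rests on 1 gradient per genotype and was not tested. Among single genes the differences were -0.55 for RPL8 and -0.65 for RPS3, ribosomal proteins of the large and the small subunit, and -0.64 for COX4I1 of cytochrome c oxidase. They were -0.61 for the ferritin heavy chain FTH1, -0.77 for the mitochondrial protein SSBP1 and -0.76 for the immediate early gene IER3, of which 39.6% of the exons overlap a gene on the other strand. For lists the value is the median of the members' differences, which can differ in sign from the difference of the 2 medians, as it does for let-7 targets (0.14 in the knockout and -0.16 in wild type). These values were -0.45 for mitochondrial ribosomal proteins, -0.41 for the ER translocon and oligosaccharyltransferase, -0.050 for immediate early genes, -0.022 for let-7 targets and 0.19 for miR-17 family targets.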

How the results depend on the processing

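Counts of 2-fold genes in the knockout, 2097 heavy and 1189 light, stayed within 1.5 times under TMM over the 2 knockout libraries, DESeq2 size factors (2070 and 1210), limits of 10 and 200 counts, and without genes overlapping others (1925 and 1015, chosen after seeing the data), and under library totals (1507 and 1744). They moved with no count limit, to 2206 light genes, and with the ribosomal RNA row left out of the library totals, to 1819 light genes (chosen after seeing the data). By construction they moved with the fold, to 3601 and 2593 at 1.5-fold and 640 and 190 at 3-fold. The count of genes shifted to heavy against wild type, 96, was 265 with library totals, 44 with DESeq2 size factors, 285 with a limit of 10 counts and 40 with one of 200. The count shifted to light, 265, was 107 with library totals and 431 with DESeq2 size factors. The cause was not tested. Library totals lowered every ratio alike and turned the sign of the let-7 (-0.045) and miR-17 (-0.078) target medians and, among named genes whose interval excluded 0, of MRPL3 (-0.13), SDHB (-0.065), TPI1 (-0.12) and SNRPC (-0.013). In the wild type gradient the sign was opposite for the medians of mitochondrial ribosomal proteins (0.22), ER translocon (0.20), immediate early genes (0.14), let-7 targets (-0.16) and miR-17 targets (-0.32), and, among named genes whose interval excluded 0, for RPL8 (0.30), RPS3 (0.27), NDUFS8 (0.045), COX4I1 (0.32), FTH1 (0.069), IER3 (0.50), CHTF8 (-0.014) and SSBP1 (0.45). A further 6 named genes with intervals that held 0, DICER1 among them, changed sign with library totals and 5 did so in wild type. All wild type signs here are those with TMM factors. All 44 list medians kept their value within the spread with a prior count of 0.5, DESeq2 size factors and TMM over 2 libraries. The rank correlation with leader length in proteins of 400 to 700 residues was -0.356 over genes passing in the knockout, -0.352 without overlapping genes and -0.361 at 200 counts (both chosen after seeing the data). No paired analysis was possible because each group has 1 library and the labels give no replicate numbers. Leaving out a replicate was not possible for the same reason.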
